A study of Homo sapiens with 36 samples.

Results

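Messenger RNA of 34 enzymes of nucleotide synthesis and folate one-carbon metabolism was followed in human cancer cell lines that carried a targeting hairpin or guide. The 34 genes were taken by symbol from the 26475 genes of the deposited table and fall into 5 roles: 5 enzymes of de novo pyrimidine synthesis, 12 of de novo purine synthesis including the PRPP synthetases, 7 that supply deoxynucleotides and triphosphates, 5 of salvage and 5 of folate one-carbon metabolism. All 34 passed the filter on low counts in each of the 4 experiments. The 36 libraries of poly-A RNA form 12 groups of 3 biological replicates. The breast cancer line MDA-MB-468, of basal type, the pancreatic cancer line PANC-1 and the colorectal cancer line WiDr each carried targeting hairpin 1, targeting hairpin 2 or a non-silencing hairpin from a lentiviral pGIPZ vector. WiDr cells also carried targeting guide 1, targeting guide 2 or a non-target guide for CRISPR editing. All cells grew in DMEM with 10% fetal bovine serum, and whether a line was 1 clone or a pool is not given in the sources used here.

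Cells make pyrimidine and purine rings from amino acids, carbon dioxide, ribose phosphate and, for purines and thymidylate, single carbon units carried on folate. The mitochondrial folate enzymes turn serine into formate, and the cytosolic enzymes use that formate to build purines and thymidylate. Ribonucleotide reductase then makes the deoxynucleotides that DNA replication consumes, and salvage enzymes recover bases and nucleosides instead of building them. Many of these enzymes come as paralogue pairs that make the same product. Tumour cells are known for high levels of several of them.

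The DNA just upstream of an annotated start site is shown for 8 of the genes on which the results turn. They are both ribonucleotide reductase subunits and thymidylate synthase, the PRPP synthetase pair, a pair of mitochondrial folate enzymes and the enzyme that commits PRPP to purines. Each line gives the 250 bases before a RefSeq start on GRCh38.p14, 5′ to 3′ on the gene's strand, with motif matches in capitals. Where a gene had several starts, the window with the most motif matches was taken, which need not be that of the main start. The motifs searched on both strands were the E-box CACGTG, the E2F-type words TTTCCCGC and TTTGGCGC, the CCAAT box, the cell cycle homology word TTTGAA and the ATF4-type element TGATGNAAT.
RRM2 (chr2:10122489-10122738, plus strand): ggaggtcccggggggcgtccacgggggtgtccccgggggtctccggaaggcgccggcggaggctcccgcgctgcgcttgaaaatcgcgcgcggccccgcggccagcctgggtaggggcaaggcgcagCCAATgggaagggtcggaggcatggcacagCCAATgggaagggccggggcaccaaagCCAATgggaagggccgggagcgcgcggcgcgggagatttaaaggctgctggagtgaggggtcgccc
RRM1 (chr11:4094435-4094684, plus strand): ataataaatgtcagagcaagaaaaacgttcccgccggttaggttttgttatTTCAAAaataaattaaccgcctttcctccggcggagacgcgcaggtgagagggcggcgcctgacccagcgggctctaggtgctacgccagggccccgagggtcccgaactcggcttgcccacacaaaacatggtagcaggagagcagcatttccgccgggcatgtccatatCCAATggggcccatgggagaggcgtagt
TYMS (chr18:657403-657652, plus strand): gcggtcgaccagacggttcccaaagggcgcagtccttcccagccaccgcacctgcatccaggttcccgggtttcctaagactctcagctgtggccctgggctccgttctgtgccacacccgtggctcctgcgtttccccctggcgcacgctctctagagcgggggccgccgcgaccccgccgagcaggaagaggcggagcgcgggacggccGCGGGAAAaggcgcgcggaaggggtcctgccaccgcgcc
PRPS2 (chrX:12791162-12791411, plus strand): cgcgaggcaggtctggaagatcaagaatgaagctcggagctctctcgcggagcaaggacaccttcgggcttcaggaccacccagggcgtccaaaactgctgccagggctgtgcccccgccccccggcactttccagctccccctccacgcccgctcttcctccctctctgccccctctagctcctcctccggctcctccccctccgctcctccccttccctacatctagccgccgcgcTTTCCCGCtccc
PRPS1 (chrX:107628260-107628509, plus strand): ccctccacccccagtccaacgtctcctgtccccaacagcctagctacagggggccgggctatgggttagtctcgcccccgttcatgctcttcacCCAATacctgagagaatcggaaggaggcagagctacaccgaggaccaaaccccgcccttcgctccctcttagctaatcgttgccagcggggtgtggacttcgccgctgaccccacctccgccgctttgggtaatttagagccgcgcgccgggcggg
MTHFD2 (chr2:74198365-74198614, plus strand): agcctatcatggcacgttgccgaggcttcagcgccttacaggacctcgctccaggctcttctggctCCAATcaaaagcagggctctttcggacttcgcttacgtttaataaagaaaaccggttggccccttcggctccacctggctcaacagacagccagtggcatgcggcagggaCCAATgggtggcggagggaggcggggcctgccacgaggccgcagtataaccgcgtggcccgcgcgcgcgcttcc
MTHFD1L (chr6:150866197-150866446, plus strand): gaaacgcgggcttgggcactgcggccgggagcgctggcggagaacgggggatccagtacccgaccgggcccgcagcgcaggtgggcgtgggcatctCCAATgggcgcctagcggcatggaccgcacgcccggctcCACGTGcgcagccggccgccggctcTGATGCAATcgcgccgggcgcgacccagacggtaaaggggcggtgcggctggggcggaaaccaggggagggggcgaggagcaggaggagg
PPAT (chr4:56435616-56435865, minus strand): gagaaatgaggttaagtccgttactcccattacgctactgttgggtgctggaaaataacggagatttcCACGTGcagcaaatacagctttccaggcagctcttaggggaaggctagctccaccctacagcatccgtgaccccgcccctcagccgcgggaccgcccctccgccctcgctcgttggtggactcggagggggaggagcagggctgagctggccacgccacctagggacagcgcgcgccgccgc

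Of the 34 genes 31 matched the RefSeq promoter table, and IMPDH2, SHMT2 and ADSL did not. All shares count 1 window a gene, the one with the most motif matches. An E-box stood in the window of 6 of the 31 (19.4%), namely ATIC, DCK, DHODH, MTHFD1, MTHFD1L and PPAT. The shares beside it were 7.10% of all 27305 genes in the promoter table and 9.79% of the 10641 tested in WiDr with guides. The word TTTCCCGC occurred in DUT, PRPS2 and TYMS (9.68%, against 1.56% and 2.47%), and TTTGGCGC in DUT (3.23%, against 0.641% and 0.987%). A CCAAT box occurred in 13 of the 31 (41.9%, against 36.4% and 40.0%), with 3 copies each in RRM2 and GART. The word TTTGAA occurred in 4 (12.9%, against 15.2% and 10.7%), and the ATF4-type element in MTHFD1L alone among the 31 (3.23%, against 1.03% and 0.564%). Since windows were picked by their matches, a share also depends on how many starts a gene has. These are matches of letters and carry no measurement of binding.

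Library totals ran from 28371119 to 49237321 rounded counts, and CPM stands for counts scaled to library size with TMM factors within 1 experiment. The line identities were checked against marker genes. On the TMM scale over all 36 libraries, KRT5 stood at 1495 to 2521 CPM in MDA-MB-468 and VIM at 3505 to 7048 CPM in PANC-1. In WiDr KRT20 stood at 260 to 730 CPM and LGALS4 at 292 to 798 CPM, while the intestinal markers CDX1 (0.549 to 1.71 CPM), CDX2 (1.15 to 3.16 CPM) and CDH17 (0.132 to 0.642 CPM) were low. KRT14, KRT6B and EGFR were highest in MDA-MB-468. Other listed markers went against the line. KRT7, listed for PANC-1, stood at 5.15 to 9.53 CPM there and 1005 to 1547 CPM in MDA-MB-468. GABRP, listed for MDA-MB-468, stood at 26.7 to 47.3 CPM there and 48.1 to 140 CPM in WiDr. CDX2 was higher in PANC-1, at 4.38 to 11.8 CPM. The blood marker LYZ stood at 1400 to 2568 CPM in WiDr, while PTPRC was at most 0.161 CPM in any line. In 4 of the 6 targeting guide libraries the genotype field names the other guide than the title, and the titles were used here. For PANC-1, hairpin 2 is written as the libraries labelled hairpin 2, because a check of that label went against it. Among the PANC-1 controls replicate 1 stood apart: the 34 genes summed to 4418, 5133 and 5123 CPM in control replicates 1 to 3. Ribosomal RNA genes took 0.838% to 2.60% of counts with PANC-1 hairpin 1 and 1.22% to 1.80% in the libraries labelled hairpin 2, against 4.61% to 9.60% in the controls. In WiDr they took 1.27% to 2.56% with hairpin 1 and 5.38% to 10.2% with hairpin 2, against 1.59% to 2.71% with the non-silencing hairpin, and the guide arms overlapped (5.04% to 8.08% with guide 1 and 3.78% to 10.0% with guide 2, against 5.24% to 7.25%). The part of these differences in the results was not tested beyond leaving the ribosomal RNA genes out, which moved no count of called members by more than 1.5 times. In bulk RNA a change in the mix of cells and a change in RNA per cell cannot be told apart.

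Several counts are uncertain by position, since the strand setting of the counting is not given in the sources used here. TYMS shares 967 exon bases with ENOSF1 on the other strand, MTHFD2 shares 1324 with SLC4A5, GART 275 with SON, SHMT1 196 with SMCR8 and MTHFD1 178 with ZBTB25. NME1 shares 638 bases with the readthrough gene NME1-NME2 on its own strand and resembles its paralogue NME2. Genes named in GENCODE 29 as pseudogenes of DUT (8), PAICS, IMPDH1 and MTHFD2 (7 each) can also draw reads. Of these, 1 named for MTHFD2 and 0 named for DUT, PAICS or IMPDH1 stood in the deposited table.

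In their control arms the lines held these enzymes at different levels. Per kilobase of the longest annotated transcript, on a TMM scale over all 36 libraries, NME1, the nucleoside diphosphate kinase that charges triphosphates, was the highest of the 34 in PANC-1 controls at 218 ± 67.4 CPM per kb (SD, n = 3), followed by TYMS at 175 ± 30.9 and PRPS1 at 151 ± 15.9. MDA-MB-468 controls were led by TYMS at 124 ± 11.5 and RRM2 at 122 ± 4.11 CPM per kb, 2 levels that overlap within their spread. WiDr hairpin controls were led instead by the mitochondrial enzymes SHMT2 at 135 ± 4.62 and MTHFD2 at 133 ± 4.40 CPM per kb, which also overlapped, and WiDr guide controls had 125 ± 3.32 and 88.4 ± 0.744 for the same genes. RRM2, the small subunit of ribonucleotide reductase, was far lower in WiDr, at 16.1 ± 1.13 CPM per kb with the non-silencing hairpin and 32.3 ± 1.21 with the non-target guide, than in PANC-1 at 104 ± 5.56. DHODH, the mitochondrial dihydroorotate dehydrogenase, was the lowest of the 34 in MDA-MB-468 and in both WiDr controls, between 2.31 and 2.75 CPM per kb on average, and CTPS2 the lowest in PANC-1 at 1.73 ± 0.188. The order of genes depends on the length used. Divided by the median transcript length instead, SHMT2 led the MDA-MB-468 controls at 252 CPM per kb, above CMPK1 at 248 and MTHFD1 at 204, with TYMS at 155 and RRM2 at 131. In WiDr hairpin controls CTPS2, at 5.36, then lay under DHODH, at 6.84, and in WiDr guide controls CMPK1, at 248, lay above MTHFD2, at 211. NME1 remained the highest and CTPS2 the lowest in PANC-1, and SHMT2 the highest in both WiDr controls. These levels are described without a test, and the lines also differ in everything else.

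**Figure D1:**
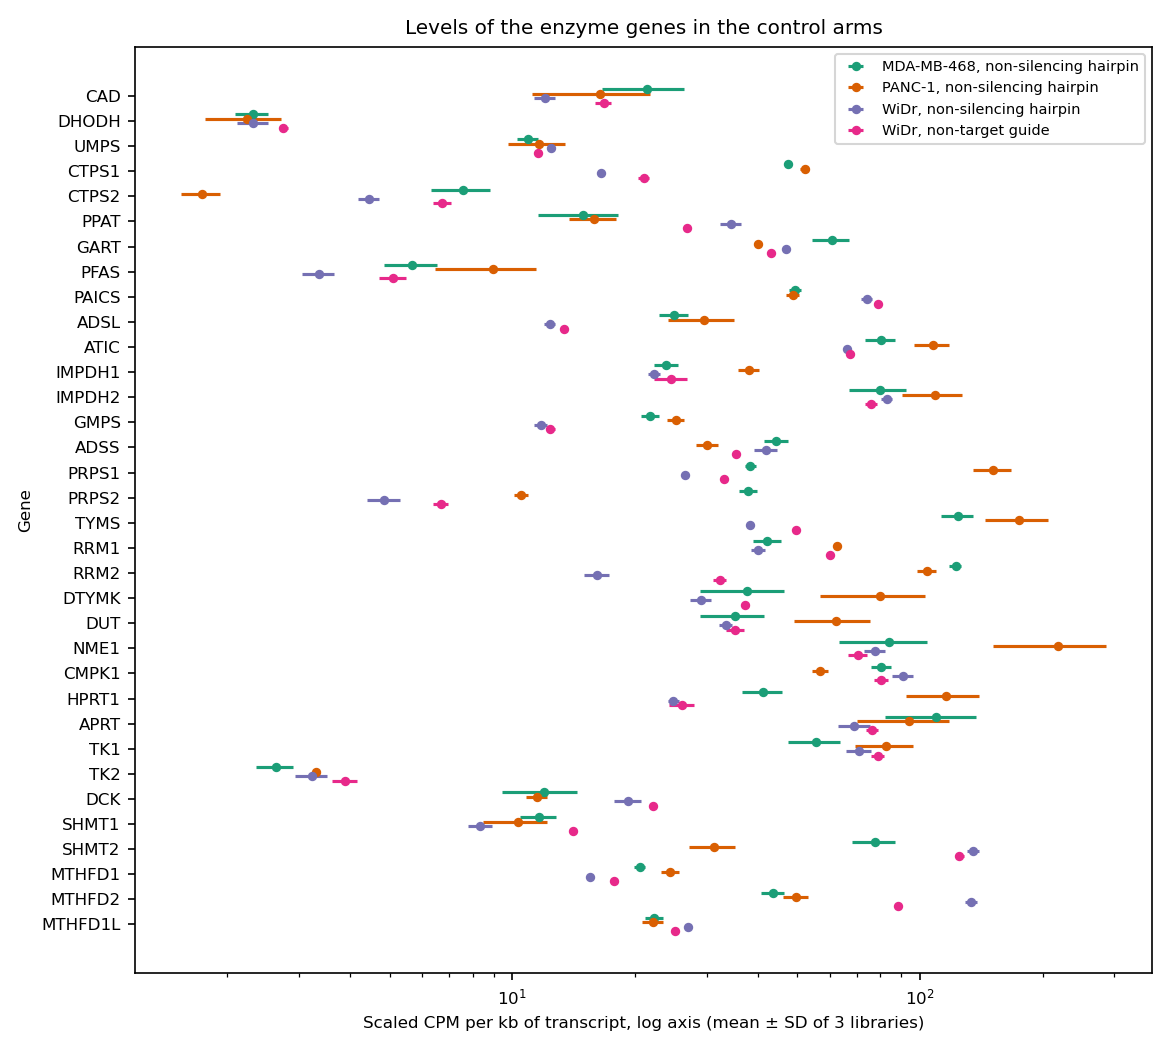
Mean level of each of the 34 genes in the control arms, as scaled CPM per kb of transcript on a log axis; points are means and bars SD of 3 libraries, coloured by control arm. NME1, TYMS and PRPS1 lie farthest right in PANC-1, SHMT2 and MTHFD2 in WiDr, and DHODH and TK2 lie toward the left in all 4 arms.

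Each construct was compared with the control of its own experiment by the edgeR quasi-likelihood test, with Benjamini-Hochberg adjustment over all genes tested, and a gene was called at an adjusted p under 0.05. Both constructs of an experiment share their 3 control libraries, so their values are set side by side and are not independent. Of the 34 genes 33 were called with at least 1 of the 8 constructs, against 86.8% of the 12581 genes tested in all 4 experiments, and GART, which carries several steps of purine ring synthesis, with none. Called up with some construct and down with another were 15 of the 34 (44.1%, against 35.9% of those genes), 7 were called only up (20.6%, against 25.1%) and 11 only down (32.4%, against 25.8%). SHMT2 and MTHFD1L were called up with all 4 WiDr constructs and UMPS, which makes UMP from orotate, was called down with both constructs of PANC-1 and both hairpins of WiDr. Over all genes, 12.3% were called up with both WiDr hairpins and 8.48% with both guides. Called down were 11.1% with both PANC-1 constructs and 12.9% with both WiDr hairpins. The share of all genes with either joint pattern was not counted, so these 3 genes are not shown to stand out.

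**Figure D2:**
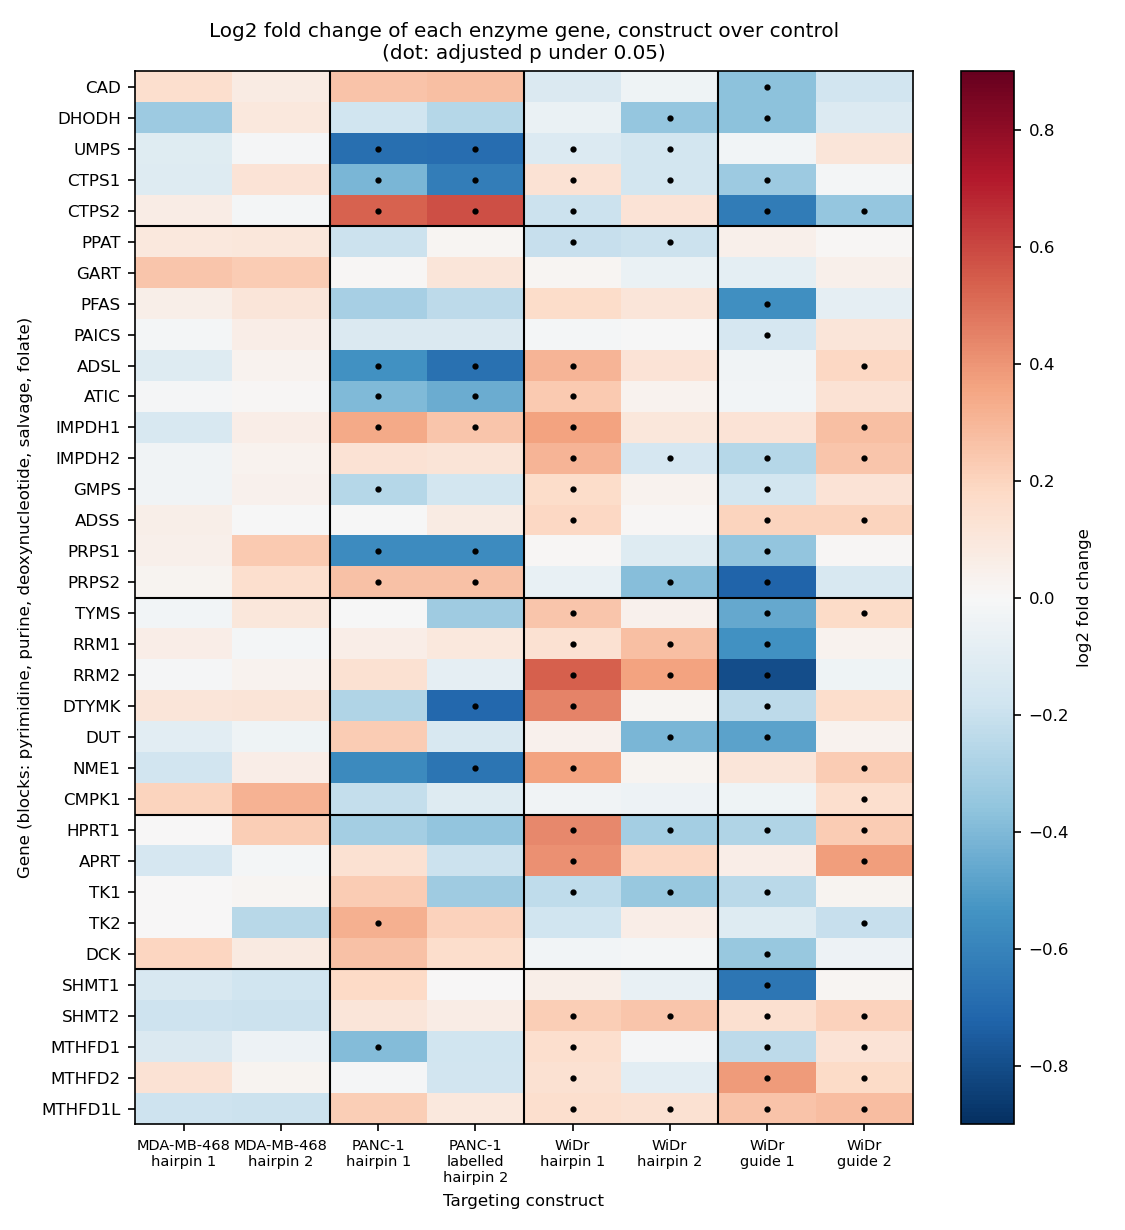
Log2 fold change of each of the 34 genes (rows, in blocks by role) with each targeting construct over its own control (columns), with a dot where the adjusted p was under 0.05. The MDA-MB-468 columns hold no dot, the WiDr guide 1 column is mostly blue and the guide 2 and WiDr hairpin 1 columns mostly red.

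In WiDr cells the 2 guides left the enzyme set at different levels. With guide 1, 20 of the 34 genes fell and 4 rose, against a background of 20.3% down and 21.4% up among 14649 genes tested; the median log2 fold change of the 34 was -0.24, against -0.0044 over all genes. With guide 2, 13 rose and 2 fell (background 14.1% up and 11.3% down), with a median of 0.11, against 0.021 over all genes. Called in opposite directions with the guides were 4 of the 34 (background 1.65%). Called up with both guides were 4 (11.8%, background 8.48%) and called down with both 1 (2.94%, background 6.26%). Directly compared, 26 of the 34 were higher with guide 2 than with guide 1 (background 17.4%) and MTHFD2 was lower (background 17.1%). Summed over the 34 genes, levels were 3669, 3743 and 3738 CPM with guide 1 and 4175, 4339 and 4278 CPM with guide 2, against 3937, 3934 and 3929.6 CPM with the non-target guide, and no 2 arms overlapped. With the libraries grouped by the genotype field instead of the title, 3 genes were called with guide 1, 0 with guide 2 and 0 between guides (edgeR; that grouping leaves 1 library for guide 2). The count of 15 called with guide 2 was 9, 8 and 7 without non-target replicates 1, 2 and 3, and 9 without guide 2 replicate 2.

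Of the enzymes of deoxynucleotide supply 5 of the 7 fell and 0 rose with guide 1, whereas 3 rose with guide 2. RRM2, the small and S-phase-regulated subunit of ribonucleotide reductase, had 65.2, 68.8 and 68.9 CPM with guide 1 and 114, 119 and 109.9 CPM with guide 2, against 122, 116 and 114 CPM with the non-target guide. The guide 1 libraries all lay below the controls for RRM2, whereas those of guide 2 overlapped them. RRM2 had edgeR log2 fold changes of -0.80 (SE 0.052, adjusted p = 4.05e-09) with guide 1 and -0.038 (SE 0.051, adjusted p = 0.618) with guide 2. RRM1, the large subunit of the same enzyme, had 124, 126 and 128 CPM with guide 1 and 188, 192 and 181 CPM with guide 2, against 183, 186 and 181 CPM with the non-target guide. The guide 1 libraries all lay below the controls for RRM1, whereas those of guide 2 overlapped them. RRM1 differed from its control on the log2 scale by -0.54 (SE 0.045, adjusted p = 7.50e-08) with guide 1 and 0.031 (SE 0.045, adjusted p = 0.647) with guide 2 (edgeR). Both subunits thus fell with guide 1, and neither was called with guide 2. TYMS, which methylates dUMP to thymidylate, had 57.2, 61.0 and 60.5 CPM with guide 1 and 89.3, 93.4 and 93.4 CPM with guide 2, against 81.7, 81.8 and 82.0 CPM with the non-target guide. All TYMS values with guide 1 lay below the controls and all those with guide 2 lay above them. For TYMS, edgeR gave log2 fold changes of -0.46 (SE 0.049, adjusted p = 1.42e-06) with guide 1 and 0.17 (SE 0.049, adjusted p = 0.0174) with guide 2. TYMS was called in opposite directions with the guides, and differed between them by 0.63 (SE 0.049, adjusted p = 4.67e-08) (edgeR). DUT, the dUTPase that keeps uracil out of DNA, had 49.1, 53.3 and 58.2 CPM with guide 1 and 76.5, 74.7 and 78.7 CPM with guide 2, against 79.2, 74.1 and 71.3 CPM in the control, and fell with guide 1 (-0.48 (SE 0.063, adjusted p = 1.14e-05), edgeR). DTYMK, the thymidylate kinase, fell by 0.23 on the log2 scale with guide 1, and NME1 and the UMP/CMP kinase CMPK1 rose with guide 2 (0.23 and 0.15).

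The folate enzymes split by compartment with guide 1, where the 3 mitochondrial genes rose and the 2 cytosolic genes fell. MTHFD2, the mitochondrial methylenetetrahydrofolate dehydrogenase and cyclohydrolase, had 507, 514 and 508 CPM with guide 1 and 429, 464 and 428 CPM with guide 2, against 391, 394 and 385 CPM with the non-target guide. MTHFD2 was higher in every library of both constructs than in any control library. MTHFD2 had edgeR log2 fold changes of 0.38 (SE 0.047, adjusted p = 5.27e-06) with guide 1 and 0.17 (SE 0.047, adjusted p = 0.0119) with guide 2. MTHFD1L, the mitochondrial synthetase that releases formate, had 109.5, 100.4 and 111 CPM with guide 1 and 105, 106 and 115 CPM with guide 2, against 88.9, 88.8 and 91.0 CPM with the non-target guide. MTHFD1L was higher in every library of both constructs than in any control library. MTHFD1L differed from its control on the log2 scale by 0.26 (SE 0.054, adjusted p = 0.00102) with guide 1 and 0.28 (SE 0.054, adjusted p = 0.00130) with guide 2 (edgeR). SHMT2, the mitochondrial serine hydroxymethyltransferase, had 345, 351 and 348 CPM with guide 1 and 346, 357 and 388 CPM with guide 2, against 311, 309 and 322 CPM with the non-target guide. SHMT2 was higher in every library of both constructs than in any control library. For SHMT2, edgeR gave log2 fold changes of 0.15 (SE 0.050, adjusted p = 0.0249) with guide 1 and 0.21 (SE 0.050, adjusted p = 0.00531) with guide 2. These 3 genes rose with both guides. SHMT1, the cytosolic serine hydroxymethyltransferase, had 20.3, 23.4 and 22.0 CPM with guide 1 and 32.6, 34.6 and 37.4 CPM with guide 2, against 34.9, 34.8 and 33.4 CPM with the non-target guide. The guide 1 libraries all lay below the controls for SHMT1, whereas those of guide 2 overlapped them. SHMT1 had edgeR log2 fold changes of -0.65 (SE 0.069, adjusted p = 1.23e-06) with guide 1 and 0.020 (SE 0.067, adjusted p = 0.855) with guide 2. MTHFD1, the cytosolic enzyme that takes up formate, had 101, 103 and 102 CPM with guide 1 and 129, 131 and 133 CPM with guide 2, against 119, 119 and 122 CPM in the control. It fell with guide 1 (-0.24 (SE 0.045, adjusted p = 0.000426)) and rose with guide 2 (0.12 (SE 0.044, adjusted p = 0.0493), edgeR). The SHMT2 to SHMT1 ratio per kb was 16.5, 14.6 and 15.4 with guide 1 and 10.3, 10.0 and 10.1 with guide 2, against 8.65, 8.62 and 9.37 in the control, so that the 3 arms did not overlap. SHMT2 was not called with both guides without non-target replicate 1 or 2 or guide 1 replicate 2 or 3, and MTHFD2 without non-target replicate 3 or guide 2 replicate 2.

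**Figure D3:**
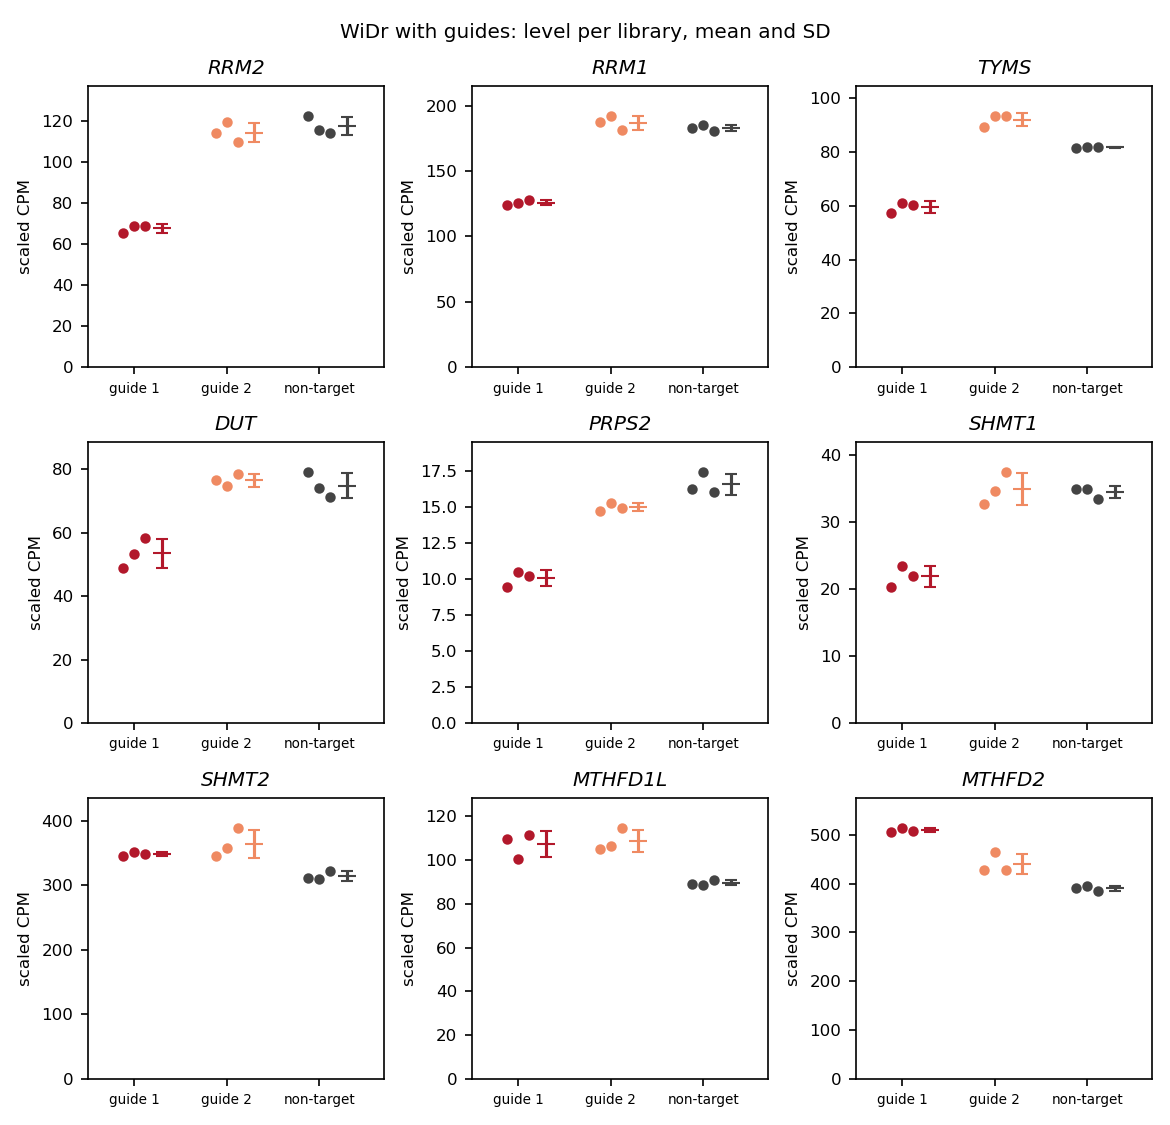
Level of 9 genes in each WiDr guide library as scaled CPM from 0, with guide 1 at the left, guide 2 in the middle and the non-target guide at the right; points are libraries and bars the mean and SD of 3. RRM2, RRM1, TYMS, DUT, PRPS2 and SHMT1 are lowest with guide 1, while SHMT2, MTHFD1L and MTHFD2 lie above the control with both guides.

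Among the 12 purine enzymes 6 fell and 1 rose with guide 1, and 4 rose and 0 fell with guide 2. ADSS, adenylosuccinate synthase on the AMP branch, had 115, 111 and 111 CPM with guide 1 and 109.7, 119 and 108 CPM with guide 2, against 98.6, 97.7 and 96.4 CPM with the non-target guide. ADSS was higher in every library of both constructs than in any control library. ADSS differed from its control on the log2 scale by 0.20 (SE 0.050, adjusted p = 0.00446) with guide 1 and 0.20 (SE 0.050, adjusted p = 0.00725) with guide 2 (edgeR). IMPDH2, the IMP dehydrogenase induced in proliferating cells, had 100.3, 104 and 105 CPM with guide 1 and 139, 150.1 and 149.7 CPM with guide 2, against 122, 120.3 and 127 CPM with the non-target guide. All IMPDH2 values with guide 1 lay below the controls and all those with guide 2 lay above them. For IMPDH2, edgeR gave log2 fold changes of -0.26 (SE 0.049, adjusted p = 0.000533) with guide 1 and 0.25 (SE 0.049, adjusted p = 0.00164) with guide 2. IMPDH2 was called in opposite directions and differed between the guides by 0.50 (SE 0.049, adjusted p = 6.41e-07) (edgeR). Its paralogue IMPDH1 had 81.0, 74.9 and 73.0 CPM with guide 1 and 79.0, 82.7 and 91.8 CPM with guide 2, against 65.4, 67.3 and 77.1 CPM in the control, with log2 fold changes of 0.13 and 0.27, of which only the rise with guide 2 was called. PRPS2, a PRPP synthetase, had 9.42, 10.5 and 10.2 CPM with guide 1 and 14.8, 15.3 and 15.0 CPM with guide 2, against 16.3, 17.5 and 16.1 CPM with the non-target guide. PRPS2 was lower in every library of both constructs than in any control library. PRPS2 had edgeR log2 fold changes of -0.72 (SE 0.075, adjusted p = 1.10e-06) with guide 1 and -0.14 (SE 0.073, adjusted p = 0.160) with guide 2. PRPS1, the other PRPP synthetase, had 52.7, 55.9 and 56.9 CPM with guide 1 and 69.5, 71.7 and 71.2 CPM with guide 2, against 69.9, 69.8 and 71.6 CPM with the non-target guide. The guide 1 libraries all lay below the controls for PRPS1, whereas those of guide 2 overlapped them. PRPS1 differed from its control on the log2 scale by -0.35 (SE 0.050, adjusted p = 3.07e-05) with guide 1 and 0.0076 (SE 0.050, adjusted p = 0.930) with guide 2 (edgeR). Both synthetases fell with guide 1 and neither was called with guide 2. PFAS, an amidotransferase of ring assembly, fell with guide 1 (-0.55), as did GMPS (-0.16) and PAICS (-0.15), and ADSL rose with guide 2 (0.19). PPAT, GART and ATIC were called with neither guide, with log2 fold changes between -0.088 and 0.13.

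Of the 5 pyrimidine enzymes 4 fell with guide 1 and 1 with guide 2, and none rose with either. CTPS2, a CTP synthase that makes CTP from UTP, had 19.7, 17.9 and 18.5 CPM with guide 1 and 21.9, 23.3 and 22.6 CPM with guide 2, against 29.2, 30.2 and 27.2 CPM with the non-target guide. CTPS2 was lower in every library of both constructs than in any control library. For CTPS2, edgeR gave log2 fold changes of -0.63 (SE 0.066, adjusted p = 1.18e-06) with guide 1 and -0.35 (SE 0.066, adjusted p = 0.00105) with guide 2. It is the only one of the 34 that fell with both guides in this fit. CTPS1, the CTP synthase on which proliferating lymphocytes depend, had 78.5, 80.3 and 80.0 CPM with guide 1 and 97.7, 101 and 97.3 CPM with guide 2, against 100.5, 96.5 and 102 CPM with the non-target guide. The guide 1 libraries all lay below the controls for CTPS1, whereas those of guide 2 overlapped them. CTPS1 had edgeR log2 fold changes of -0.32 (SE 0.047, adjusted p = 3.59e-05) with guide 1 and -0.016 (SE 0.047, adjusted p = 0.835) with guide 2. CAD, which starts the pathway, and DHODH both fell with guide 1 (-0.37 and -0.37), and UMPS was called with neither (-0.027 and 0.11). In the salvage group 3 of 5 fell with guide 1, and 2 rose and 1 fell with guide 2. HPRT1, which recovers hypoxanthine and guanine, had 28.6, 30.8 and 30.9 CPM with guide 1 and 39.7, 45.7 and 42.4 CPM with guide 2, against 37.8, 37.9 and 33.2 CPM with the non-target guide. All HPRT1 values with guide 1 lay below the controls and all those with guide 2 lay above them. HPRT1 differed from its control on the log2 scale by -0.27 (SE 0.070, adjusted p = 0.00515) with guide 1 and 0.23 (SE 0.069, adjusted p = 0.0214) with guide 2 (edgeR). APRT, which recovers adenine, rose with guide 2 (0.38 (SE 0.067, adjusted p = 0.000679), edgeR) and had 0.057 with guide 1. The cytosolic thymidine kinase TK1 fell with guide 1 (-0.24), the deoxycytidine kinase DCK fell with guide 1 (-0.34) and the mitochondrial thymidine kinase TK2 fell with guide 2 (-0.21).

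With hairpins in the same line most calls with hairpin 1 were rises. Of the 34 genes 22 were called with hairpin 1 and 13 with hairpin 2, against backgrounds of 48% and 44.7%, and 3 were called in opposite directions with the hairpins (background 2.28%). Called up with both hairpins were 4 (11.8%, background 12.3%) and called down with both 3 (8.82%, background 12.9%). With hairpin 1, 18 of the 34 genes rose and 4 fell, against a background of 24.1% up and 23.9% down among 14317 genes tested; with hairpin 2, 4 rose and 9 fell (background 22.2% up and 22.5% down). The medians of the 34 were 0.14 with hairpin 1 and -0.0068 with hairpin 2, against 0.0015 and -0.0058 over all genes. Between the constructs 18 genes were lower with hairpin 2 than with hairpin 1 (background 21.8%) and 3 were higher (background 20.6%). The summed level was 4408, 4072 and 4111 CPM with hairpin 1 and 3804, 3892 and 3851 CPM with hairpin 2, against 3885, 3829.9 and 3875 CPM with the non-silencing hairpin, with replicate 1 highest within hairpin 1. Without control replicate 2 the count called with hairpin 1 was 14 in place of 22, and without hairpin 2 replicate 1 the count that differed between hairpins was 10 in place of 21.

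Deoxynucleotide enzymes rose with hairpin 1, 5 of 7 up and 0 down, and hairpin 2 gave 2 up and 1 down. RRM2 had 86.7, 81.8 and 83.2 CPM with hairpin 1 and 72.6, 76.9 and 72.6 CPM with hairpin 2, against 62.4, 55.7 and 55.2 CPM with the non-silencing hairpin. RRM2 was higher in every library of both constructs than in any control library. For RRM2, edgeR gave log2 fold changes of 0.54 (SE 0.057, adjusted p = 1.58e-06) with hairpin 1 and 0.36 (SE 0.057, adjusted p = 0.000111) with hairpin 2. RRM2 had the largest rise of the 34 with hairpin 1 and kept its call without any 1 library. RRM1 had 138, 127 and 133 CPM with hairpin 1 and 142, 149 and 145 CPM with hairpin 2, against 124, 115 and 122 CPM with the non-silencing hairpin. RRM1 was higher in every library of both constructs than in any control library. RRM1 had edgeR log2 fold changes of 0.14 (SE 0.050, adjusted p = 0.0328) with hairpin 1 and 0.27 (SE 0.050, adjusted p = 0.000374) with hairpin 2. TYMS had 85.1, 70.6 and 66.6 CPM with hairpin 1 and 63.4, 66.1 and 61.7 CPM with hairpin 2, against 63.2, 61.8 and 61.4 CPM with the non-silencing hairpin. The hairpin 1 libraries all lay above the controls for TYMS, whereas those of hairpin 2 overlapped them. TYMS differed from its control on the log2 scale by 0.25 (SE 0.073, adjusted p = 0.0102) with hairpin 1 and 0.038 (SE 0.074, adjusted p = 0.710) with hairpin 2 (edgeR). DTYMK and NME1 rose with hairpin 1 (0.45 and 0.36), in both of which replicate 1 was the highest library, and DUT fell with hairpin 2 (-0.41 (SE 0.089, adjusted p = 0.00208), edgeR). CMPK1 was called with neither hairpin (-0.029 and -0.047). RRM1 was not called with both hairpins without control replicate 2 or 3 or hairpin 1 replicate 1 or 3.

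Among folate enzymes 4 of 5 rose with hairpin 1 and 2 with hairpin 2, and none fell. SHMT2 had 414, 384 and 371 CPM with hairpin 1 and 398, 387 and 407 CPM with hairpin 2, against 322, 344 and 336 CPM with the non-silencing hairpin. SHMT2 was higher in every library of both constructs than in any control library. For SHMT2, edgeR gave log2 fold changes of 0.22 (SE 0.052, adjusted p = 0.00222) with hairpin 1 and 0.25 (SE 0.052, adjusted p = 0.00102) with hairpin 2. MTHFD1L had 106, 106 and 105 CPM with hairpin 1 and 106, 100.3 and 107 CPM with hairpin 2, against 94.2, 96.4 and 94.6 CPM with the non-silencing hairpin. MTHFD1L was higher in every library of both constructs than in any control library. MTHFD1L had edgeR log2 fold changes of 0.15 (SE 0.047, adjusted p = 0.0121) with hairpin 1 and 0.13 (SE 0.047, adjusted p = 0.0285) with hairpin 2. Both of these mitochondrial enzymes, like MTHFD2, also rose with both guides. MTHFD2 had 659, 617 and 634 CPM with hairpin 1 and 530.3, 555 and 548 CPM with hairpin 2, against 593, 558 and 589 CPM with the non-silencing hairpin. All MTHFD2 values with hairpin 1 lay above the controls and all those with hairpin 2 lay below them. MTHFD2 differed from its control on the log2 scale by 0.13 (SE 0.050, adjusted p = 0.0360) with hairpin 1 and -0.092 (SE 0.050, adjusted p = 0.151) with hairpin 2 (edgeR). MTHFD1 rose with hairpin 1 (0.15) and had -0.0077 with hairpin 2, and SHMT1 was called with neither (0.051 and -0.068). The call of MTHFD1L with both hairpins was lost without control replicate 1 or 3 or hairpin 2 replicate 1 or 3. In the salvage group hairpin 1 gave 2 up and 1 down, and hairpin 2 gave 2 down. HPRT1 had 53.3, 43.4 and 41.5 CPM with hairpin 1 and 25.5, 29.8 and 27.1 CPM with hairpin 2, against 34.9, 32.9 and 34.6 CPM with the non-silencing hairpin. All HPRT1 values with hairpin 1 lay above the controls and all those with hairpin 2 lay below them. For HPRT1, edgeR gave log2 fold changes of 0.43 (SE 0.086, adjusted p = 0.000742) with hairpin 1 and -0.31 (SE 0.088, adjusted p = 0.00997) with hairpin 2. HPRT1 had the largest difference between the hairpins among the 34, at -0.74 (SE 0.087, adjusted p = 1.06e-05) (edgeR). TK1 had 109, 95.5 and 93.8 CPM with hairpin 1 and 89.3, 96.1 and 89.4 CPM with hairpin 2, against 109, 125 and 115 CPM with the non-silencing hairpin. The libraries of hairpin 2 all lay below the controls for TK1, whereas those of hairpin 1 overlapped them. TK1 had edgeR log2 fold changes of -0.23 (SE 0.065, adjusted p = 0.00950) with hairpin 1 and -0.34 (SE 0.065, adjusted p = 0.000539) with hairpin 2. APRT rose with hairpin 1 (0.41), and TK2 and DCK were called with neither hairpin.

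Among purine enzymes 6 of 12 rose and 1 fell with hairpin 1, and 3 fell with hairpin 2. PPAT, the amidotransferase that commits PRPP to purines, had 101, 105 and 114 CPM with hairpin 1 and 104, 111 and 109 CPM with hairpin 2, against 129.9, 115 and 125 CPM with the non-silencing hairpin. PPAT was lower in every library of both constructs than in any control library. PPAT differed from its control on the log2 scale by -0.21 (SE 0.058, adjusted p = 0.00687) with hairpin 1 and -0.19 (SE 0.058, adjusted p = 0.0130) with hairpin 2 (edgeR). PPAT was not called with both hairpins without control replicate 1 or 3 or hairpin 2 replicate 1. IMPDH2 had 182, 159 and 154 CPM with hairpin 1 and 121, 119 and 119 CPM with hairpin 2, against 128, 135 and 136 CPM with the non-silencing hairpin. All IMPDH2 values with hairpin 1 lay above the controls and all those with hairpin 2 lay below them. For IMPDH2, edgeR gave log2 fold changes of 0.31 (SE 0.058, adjusted p = 0.000366) with hairpin 1 and -0.15 (SE 0.058, adjusted p = 0.0416) with hairpin 2. IMPDH1 had 78.7, 82.8 and 80.5 CPM with hairpin 1 and 66.3, 67.9 and 67.5 CPM with hairpin 2, against 61.0, 65.1 and 61.7 CPM with the non-silencing hairpin. IMPDH1 was higher in every library of both constructs than in any control library. IMPDH1 had edgeR log2 fold changes of 0.37 (SE 0.050, adjusted p = 1.91e-05) with hairpin 1 and 0.10 (SE 0.050, adjusted p = 0.108) with hairpin 2. IMPDH1 rose with hairpin 1 while its paralogue was called in opposite directions with the hairpins. ADSL, ATIC, GMPS and ADSS rose with hairpin 1, with log2 fold changes of 0.31, 0.24, 0.17 and 0.19, and none of these 4 was called with hairpin 2. PRPS2 fell with hairpin 2 (-0.38 (SE 0.10, adjusted p = 0.00664), edgeR), and PRPS1, PAICS, PFAS and GART were called with neither. Of the pyrimidine enzymes 1 rose and 2 fell with hairpin 1 and 3 fell with hairpin 2. UMPS had 77.4, 73.7 and 74.2 CPM with hairpin 1 and 74.1, 70.9 and 73.6 CPM with hairpin 2, against 81.9, 81.2 and 82.1 CPM with the non-silencing hairpin. UMPS was lower in every library of both constructs than in any control library. UMPS differed from its control on the log2 scale by -0.12 (SE 0.048, adjusted p = 0.0449) with hairpin 1 and -0.17 (SE 0.048, adjusted p = 0.00996) with hairpin 2 (edgeR). CTPS1 had 86.9, 84.4 and 82.1 CPM with hairpin 1 and 68.3, 68.7 and 70.0 CPM with hairpin 2, against 76.6, 76.8 and 78.5 CPM with the non-silencing hairpin. All CTPS1 values with hairpin 1 lay above the controls and all those with hairpin 2 lay below them. For CTPS1, edgeR gave log2 fold changes of 0.13 (SE 0.047, adjusted p = 0.0356) with hairpin 1 and -0.16 (SE 0.047, adjusted p = 0.0104) with hairpin 2. CTPS1 was called in opposite directions with the hairpins. CTPS2 fell with hairpin 1 (-0.20) and had 0.13 with hairpin 2, and DHODH fell with hairpin 2 (-0.35). CAD was called with neither hairpin (-0.13 and -0.040). UMPS kept its call with both hairpins only in the fit without hairpin 1 replicate 1, among the 9 that leave out 1 library.

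In PANC-1 some of the set rose and some fell, and the CTP synthases CTPS1 and CTPS2 moved apart with both constructs, as did the PRPP synthetases PRPS1 and PRPS2, though the rise of PRPS2 was not called in any of the 9 fits without 1 library. With hairpin 1, 4 of the 34 genes rose and 7 fell (background 16.2% up and 14.0% down of 15128 genes tested), and in the libraries labelled hairpin 2, 3 rose and 7 fell (background 16.7% up and 16.7% down). Their medians were -0.0052 and -0.14, against -0.015 and -0.0047 over all genes. Called up with both constructs were 3 of the 34 (8.82%, background 12.7%) and called down with both 5 (14.7%, background 11.1%), shares near those of all genes. None of the 34 differed between the libraries labelled hairpin 2 and hairpin 1 (edgeR, background 0.106%, of which 0.0264% higher), and none was called in opposite directions with both (background 0.00661%), while 2 did by the DESeq2 Wald test, and a direction in the libraries labelled hairpin 2 rests on that label. The summed level was 4795, 4313 and 4409 CPM with hairpin 1 and 4181, 4255 and 4254 CPM in the libraries labelled hairpin 2, against 4418, 5133 and 5123 CPM in the controls. Without control replicate 1, 11 genes fell with hairpin 1 and 14 genes in the libraries labelled hairpin 2, and 9 fell with both in place of 5. That replicate was singled out by its low sum over these same 34 genes, so leaving it out raises their control level. The added falls are therefore no separate support. Falls over all genes also became more frequent in that fit, at 23.5% with hairpin 1, 27.5% in the libraries labelled hairpin 2 and 21% with both.

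Of the 5 pyrimidine enzymes 2 fell and 1 rose with both constructs, against backgrounds of 11.1% down and 12.7% up with both. UMPS had 52.7, 44.4 and 47.2 CPM with hairpin 1 and 47.4, 46.8 and 49.6 CPM in the libraries labelled hairpin 2, against 63.2, 83.9 and 83.9 CPM with the non-silencing hairpin. UMPS was lower in every library of both constructs than in any control library. UMPS had edgeR log2 fold changes of -0.68 (SE 0.12, adjusted p = 0.00313) with hairpin 1 and -0.68 (SE 0.12, adjusted p = 0.00289) in the libraries labelled hairpin 2. CTPS1 had 182, 181 and 189 CPM with hairpin 1 and 159, 159 and 160.0 CPM in the libraries labelled hairpin 2, against 239.7, 245 and 250.4 CPM with the non-silencing hairpin. CTPS1 was lower in every library of both constructs than in any control library. CTPS1 differed from its control on the log2 scale by -0.41 (SE 0.068, adjusted p = 0.00196) with hairpin 1 and -0.62 (SE 0.069, adjusted p = 0.000187) in the libraries labelled hairpin 2 (edgeR). CTPS2 had 9.49, 11.4 and 11.0 CPM with hairpin 1 and 10.6, 11.1 and 11.3 CPM in the libraries labelled hairpin 2, against 7.90, 6.40 and 7.74 CPM with the non-silencing hairpin. CTPS2 was higher in every library of both constructs than in any control library. For CTPS2, edgeR gave log2 fold changes of 0.53 (SE 0.12, adjusted p = 0.00785) with hairpin 1 and 0.58 (SE 0.12, adjusted p = 0.00488) in the libraries labelled hairpin 2. The CTP synthases moved in opposite directions: their ratio per kb was 17.3, 14.2 and 15.5 with hairpin 1 and 13.6, 12.9 and 12.8 in the libraries labelled hairpin 2, against 27.3, 34.6 and 29.2 in the controls. UMPS, CTPS1 and CTPS2 kept their calls with both constructs in each of the 9 fits without 1 library. CAD and DHODH were called with neither construct, and CAD varied widely among the controls (160.0, 85.4 and 107 CPM). Without control replicate 1, the highest control for CAD, that gene was called up. The values were 0.53 (adjusted p = 0.00733) for hairpin 1 and 0.54 (adjusted p = 0.00549) for the libraries labelled hairpin 2 (edgeR). Leaving out the highest control lowers the control level of CAD. These calls therefore show a dependence on 1 library and are no support for a rise.

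Of the 12 purine enzymes 2 rose and 4 fell with hairpin 1, and 2 rose and 3 fell in the libraries labelled hairpin 2. PRPS1 had 227, 209 and 212 CPM with hairpin 1 and 209.8, 218 and 218 CPM in the libraries labelled hairpin 2, against 282, 342 and 333 CPM with the non-silencing hairpin. PRPS1 was lower in every library of both constructs than in any control library. PRPS1 had edgeR log2 fold changes of -0.57 (SE 0.092, adjusted p = 0.00182) with hairpin 1 and -0.57 (SE 0.092, adjusted p = 0.00171) in the libraries labelled hairpin 2. PRPS2 had 32.1, 30.1 and 31.3 CPM with hairpin 1 and 31.4, 29.2 and 32.8 CPM in the libraries labelled hairpin 2, against 24.8, 26.7 and 26.3 CPM with the non-silencing hairpin. PRPS2 was higher in every library of both constructs than in any control library. PRPS2 differed from its control on the log2 scale by 0.26 (SE 0.079, adjusted p = 0.0322) with hairpin 1 and 0.26 (SE 0.080, adjusted p = 0.0314) in the libraries labelled hairpin 2 (edgeR). The PRPS1 to PRPS2 ratio per kb was 8.25, 8.09 and 7.88 with hairpin 1 and 7.81, 8.72 and 7.75 in the libraries labelled hairpin 2, against 13.3, 15.0 and 14.8 in the controls, a pattern like that of the CTP synthases. By median transcript length the mean PRPS1 to PRPS2 ratios were 4.41 and 4.42, against 7.83 in the controls, and the mean CTPS1 to CTPS2 ratios 25.6 and 21.3, against 49.4, so that the size of a ratio depends on the length used, while the fold between arms does not. ADSL, which acts in ring assembly and again on the AMP branch, had 95.4, 81.0 and 83.4 CPM with hairpin 1 and 79.6, 81.6 and 77.0 CPM in the libraries labelled hairpin 2, against 100.3, 136 and 142 CPM with the non-silencing hairpin. ADSL was lower in every library of both constructs than in any control library. For ADSL, edgeR gave log2 fold changes of -0.54 (SE 0.13, adjusted p = 0.0133) with hairpin 1 and -0.67 (SE 0.13, adjusted p = 0.00476) in the libraries labelled hairpin 2. ATIC, which closes the purine ring, had 198, 173 and 174 CPM with hairpin 1 and 171, 178 and 179 CPM in the libraries labelled hairpin 2, against 215, 259 and 247 CPM with the non-silencing hairpin. ATIC was lower in every library of both constructs than in any control library. ATIC had edgeR log2 fold changes of -0.40 (SE 0.095, adjusted p = 0.0123) with hairpin 1 and -0.45 (SE 0.095, adjusted p = 0.00692) in the libraries labelled hairpin 2. IMPDH1 had 142, 136 and 132 CPM with hairpin 1 and 132, 134 and 119 CPM in the libraries labelled hairpin 2, against 101, 109 and 113 CPM with the non-silencing hairpin. IMPDH1 was higher in every library of both constructs than in any control library. IMPDH1 differed from its control on the log2 scale by 0.34 (SE 0.082, adjusted p = 0.0126) with hairpin 1 and 0.25 (SE 0.082, adjusted p = 0.0412) in the libraries labelled hairpin 2 (edgeR). IMPDH2 was called with neither (0.13 and 0.12), GMPS fell with hairpin 1 (-0.25), and the other 5 purine enzymes were called with neither. PRPS1 kept its call with both constructs in all 9 fits without 1 library. PRPS2 kept it in none of them, with 0.22 (adjusted p = 0.0673) and 0.21 (adjusted p = 0.0668) without control replicate 1, and IMPDH1 in 1. ADSL lost it without control replicate 3 or hairpin 1 replicate 2, and ATIC without hairpin 1 replicate 2 or 3 (edgeR).

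**Figure D4:**
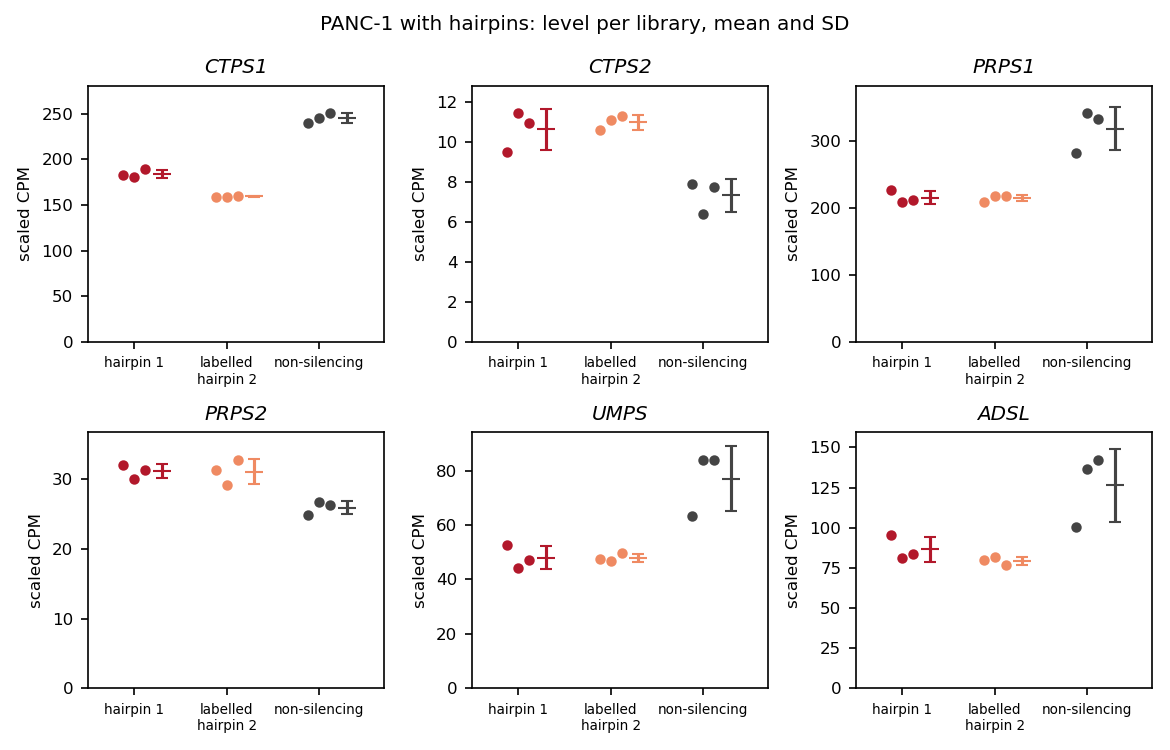
Level of 6 genes in each PANC-1 library as scaled CPM from 0, with hairpin 1 at the left, the libraries labelled hairpin 2 in the middle and the non-silencing hairpin at the right; points are libraries and bars the mean and SD of 3. CTPS1, PRPS1, UMPS and ADSL lie below the controls and CTPS2 and PRPS2 above them, and control replicate 1 is the lowest control for PRPS1, UMPS and ADSL.

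The deoxynucleotide genes gave 0 calls with hairpin 1 and 2 falls in the libraries labelled hairpin 2. NME1 had 290.2, 209 and 210.2 CPM with hairpin 1 and 219, 235 and 217 CPM in the libraries labelled hairpin 2, against 229.6, 396 and 432 CPM with the non-silencing hairpin. Libraries of both constructs overlapped the controls for NME1. For NME1, edgeR gave log2 fold changes of -0.58 (SE 0.22, adjusted p = 0.0774) with hairpin 1 and -0.66 (SE 0.22, adjusted p = 0.0471) in the libraries labelled hairpin 2. DTYMK had 99.5, 71.4 and 69.9 CPM with hairpin 1 and 61.1, 61.7 and 54.5 CPM in the libraries labelled hairpin 2, against 65.8, 106 and 119 CPM with the non-silencing hairpin. The libraries labelled hairpin 2 all lay below the controls for DTYMK, whereas those of hairpin 1 overlapped them. DTYMK had edgeR log2 fold changes of -0.27 (SE 0.21, adjusted p = 0.375) with hairpin 1 and -0.71 (SE 0.21, adjusted p = 0.0309) in the libraries labelled hairpin 2. In both genes control replicate 1 was far below the other controls. Calls from the fit without it show a dependence on 1 library and are not support for a fall. Without it NME1 fell with hairpin 1 as well, at -0.82 (adjusted p = 0.00106) (edgeR), and DTYMK did too, at -0.50 (adjusted p = 0.0195). TYMS, which was not called, had 329, 257 and 269 CPM with hairpin 1 and 231, 228 and 228 CPM in the libraries labelled hairpin 2, against 229, 316 and 313 CPM in the controls, and was called down in the libraries labelled hairpin 2 once control replicate 1 was left out (-0.48 (adjusted p = 0.00414)). RRM1 and RRM2 were called with neither construct, with log2 fold changes of 0.062 and 0.10 for RRM1 and 0.14 and -0.079 for RRM2. Of the salvage genes TK2 rose with hairpin 1 (0.32 (SE 0.080, adjusted p = 0.0154), edgeR) and the other thymidine kinase, TK1, was called with neither (0.23 and -0.32). HPRT1 was not called (-0.30 and -0.36) but fell with both constructs without control replicate 1, at -0.47 (adjusted p = 0.00689) and -0.53 (adjusted p = 0.00304) (edgeR). Among folate genes MTHFD1 fell with hairpin 1 (-0.39), and SHMT1, SHMT2, MTHFD2 and MTHFD1L were called with neither construct. DUT, CMPK1, APRT and DCK were called with neither construct either.

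In MDA-MB-468 none of the 34 genes was called with hairpin 1 (edgeR, background 2.27% of 14641 genes, 1.24% up), with hairpin 2 (background 3.49%, 1.69% up), between the hairpins (background 0.437%) or in opposite directions with both (background 0.0137%). An unadjusted p under 0.05 was reached by 4 of the 34 with hairpin 1 (11.8%, against 12.9% of all genes) and by 6 with hairpin 2 (17.6%, against 15.6%). By the DESeq2 Wald test 0 were called with hairpin 1 and 3 with hairpin 2, and in 1 edgeR fit of all 36 libraries 1 and 5. Medians of the 34 were -0.011 and 0.037, against -0.013 and 0.00041 over all genes. The largest size of any log2 fold change was 0.33, that of DHODH with hairpin 1. The summed level was 4428, 4596 and 4599 CPM with hairpin 1 and 4747, 4664 and 4787 CPM with hairpin 2, against 4673, 4393 and 4552 CPM in the controls. Control replicate 1 was the highest control for NME1 (188, 117 and 131 CPM) and the lowest for CAD (129.9, 200.3 and 160.1 CPM), and with it left out the counts of called members remained 0.

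The 4 genes with the smallest adjusted p in MDA-MB-468 are given with their values. CMPK1 had 261, 299 and 289.8 CPM with hairpin 1 and 307, 316 and 299 CPM with hairpin 2, against 238, 246 and 257 CPM with the non-silencing hairpin. CMPK1 was higher in every library of both constructs than in any control library. CMPK1 differed from its control on the log2 scale by 0.20 (SE 0.074, adjusted p = 0.279) with hairpin 1 and 0.32 (SE 0.074, adjusted p = 0.0548) with hairpin 2 (edgeR). PRPS1 had 86.3, 90.1 and 91.9 CPM with hairpin 1 and 102, 100.2 and 103 CPM with hairpin 2, against 89.0, 83.4 and 87.7 CPM with the non-silencing hairpin. The libraries of hairpin 2 all lay above the controls for PRPS1, whereas those of hairpin 1 overlapped them. For PRPS1, edgeR gave log2 fold changes of 0.045 (SE 0.064, adjusted p = 0.874) with hairpin 1 and 0.23 (SE 0.064, adjusted p = 0.0933) with hairpin 2. MTHFD1L had 74.4, 73.7 and 73.7 CPM with hairpin 1 and 73.0, 75.7 and 72.0 CPM with hairpin 2, against 82.0, 88.3 and 82.7 CPM with the non-silencing hairpin. MTHFD1L was lower in every library of both constructs than in any control library. MTHFD1L had edgeR log2 fold changes of -0.19 (SE 0.064, adjusted p = 0.215) with hairpin 1 and -0.20 (SE 0.064, adjusted p = 0.158) with hairpin 2. MTHFD1L, which rose in WiDr, was thus on the other side of its control in this line, without a call. DHODH had 9.33, 8.82 and 9.85 CPM with hairpin 1 and 12.4, 11.8 and 13.3 CPM with hairpin 2, against 13.2, 10.7 and 11.2 CPM with the non-silencing hairpin. The hairpin 1 libraries all lay below the controls for DHODH, whereas those of hairpin 2 overlapped them. DHODH differed from its control on the log2 scale by -0.33 (SE 0.11, adjusted p = 0.194) with hairpin 1 and 0.10 (SE 0.11, adjusted p = 0.807) with hairpin 2 (edgeR). The SEs of the 34 values ran from 0.057 to 0.195 on the log2 scale, against 0.044 to 0.080 with guides in WiDr. Of simulated 1.5-fold changes only 26% were recovered with both hairpins in this line. The absence of calls therefore does not exclude changes of that size.

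Whether hairpins and guides moved the genes differently within WiDr was tested as a difference of effects, the mean of both hairpins against the non-silencing hairpin minus the mean of both guides against the non-target guide, in 1 edgeR fit of 18 libraries. Of the 34 genes 12 differed, against a background of 41.6% of 14880 genes. Among them were 4 of the 7 deoxynucleotide genes. RRM2 differed by 0.87 (SE 0.065, adjusted p = 3.82e-10) and RRM1 by 0.46 (SE 0.054, adjusted p = 3.60e-07), as RRM2 rose with both hairpins and fell with guide 1. TYMS differed by 0.29 (SE 0.077, adjusted p = 0.00409) and DTYMK by 0.28 (SE 0.11, adjusted p = 0.0412). CTPS2 (0.46 (SE 0.085, adjusted p = 0.000151)), PFAS (0.45 (SE 0.10, adjusted p = 0.00107)), SHMT1 (0.31 (SE 0.083, adjusted p = 0.00438)), CTPS1 (0.16 (SE 0.052, adjusted p = 0.0191)) and MTHFD1 (0.13 (SE 0.050, adjusted p = 0.0397)) were also relatively higher with hairpins. MTHFD2 (-0.25 (SE 0.055, adjusted p = 0.000687)), PPAT (-0.22 (SE 0.071, adjusted p = 0.0142)) and UMPS (-0.18 (SE 0.055, adjusted p = 0.0110)) were relatively lower with hairpins. For SHMT2 the difference was 0.063 (SE 0.060, adjusted p = 0.430) and for MTHFD1L -0.12 (SE 0.058, adjusted p = 0.104), neither of which was called. These means join constructs that differed from each other, in 27 of the 34 genes between guides and 21 between hairpins. SHMT1, for one, was called with guide 1 alone among the WiDr constructs. The SE measures the spread of libraries and not of constructs, so the test cannot tell a difference of method from one of single constructs. The hairpin and guide cells also differ in vector and control, and which of these goes with the difference was not tested.

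Between lines, the mean effect of both PANC-1 constructs was compared with that of both WiDr hairpins in the same way, with the PANC-1 libraries labelled hairpin 2 included. Here 13 of the 34 genes differed (background 37.2% of 16269 genes), and 20 without PANC-1 control replicate 1 (background then 46.9%). The paralogue pairs gave differences of opposite sign: CTPS2 0.64 (SE 0.12, adjusted p = 0.000519) and CTPS1 -0.45 (SE 0.057, adjusted p = 1.38e-05), and PRPS2 0.54 (SE 0.11, adjusted p = 0.00122) and PRPS1 -0.46 (SE 0.084, adjusted p = 0.000419). Purine enzymes that fell in PANC-1 and rose with WiDr hairpin 1 differed as well, ADSL by -0.77 (SE 0.12, adjusted p = 9.55e-05), ATIC by -0.51 (SE 0.084, adjusted p = 0.000177) and GMPS by -0.26 (SE 0.065, adjusted p = 0.00479). NME1 differed by -0.75 (SE 0.21, adjusted p = 0.0107), DTYMK by -0.67 (SE 0.21, adjusted p = 0.0184) and RRM2 by -0.37 (SE 0.077, adjusted p = 0.00123). UMPS differed by -0.49 (SE 0.10, adjusted p = 0.00139), though it fell in both lines, MTHFD1 by -0.31 (SE 0.086, adjusted p = 0.0102) and TK2 by 0.37 (SE 0.095, adjusted p = 0.00552). The 2 WiDr hairpins differed from each other in 21 of the 34 genes, which their mean does not show. The WiDr hairpin libraries enter both comparisons of effects. SHMT2 (-0.10 (SE 0.10, adjusted p = 0.502)) and MTHFD1L (0.064 (SE 0.070, adjusted p = 0.521)) were not called in either.

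**Figure D5:**
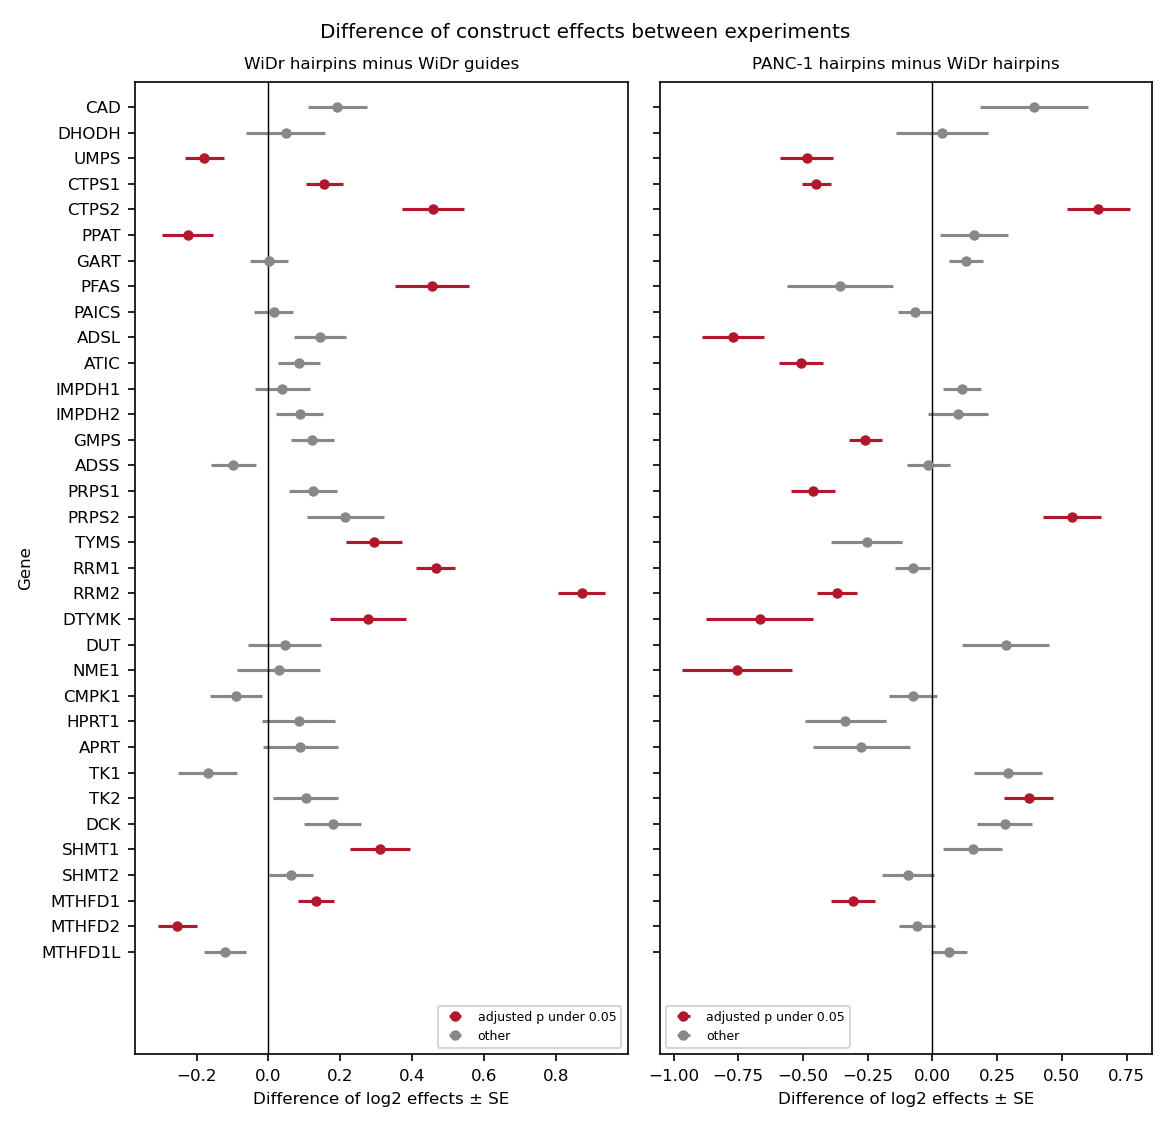
Difference of construct effects on the log2 scale for each of the 34 genes, WiDr hairpins minus WiDr guides at the left and PANC-1 hairpins minus WiDr hairpins at the right; points are edgeR estimates, bars SE, and red points have an adjusted p under 0.05. RRM2 is farthest right in the left panel, and in the right panel CTPS2 and PRPS2 lie right of 0 while CTPS1 and PRPS1 lie left.

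Another 74 genes of the same pathways, in lists of folate transport and conversion, serine and methionine, nucleoside salvage and transport, nucleotide kinases and breakdown, were counted alongside. In PANC-1 10 rose and 13 fell with both constructs of 70 tested (background 12.7% up and 11.1% down). Breakdown genes gave 5 up and 4 down of 16 tested there. Folate genes gave 2 up and 3 down of 17, and serine and methionine genes 1 up and 3 down of 9. In WiDr with hairpins 10 rose and 19 fell of 67 (background 12.3% and 12.9%), of which breakdown genes gave 2 up and 6 down of 15 tested. In WiDr with guides 8 rose and 4 fell of 68 (background 8.48% and 6.26%), of which serine and methionine genes gave 3 up and 0 down of 8 tested. In MDA-MB-468 0 rose and 1 fell of 71 (background 0.744% and 0.567%). The 14 nucleoside salvage genes gave 1 up and 1 down in PANC-1, 3 up and 3 down with WiDr hairpins and 2 up and 0 down with guides. For the 14 nucleotide kinases these were 1 up and 2 down, 1 up and 3 down, and 1 up and 1 down. The folate genes of these lists gave 3 up and 3 down of 16 with WiDr hairpins and 1 up and 1 down of 16 with guides. Breakdown genes gave 1 up and 2 down of 16 with guides, and serine and methionine genes 1 up and 4 down of 8 with WiDr hairpins. The lists are small, and their shares were not tested against the background.

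Up to 2 of these genes per experiment, those with the largest shared changes, are given by name. XDH, the xanthine oxidoreductase that ends purine breakdown, had 0.204, 0.641 and 0.207 CPM with hairpin 1 and 0.270, 0.115 and 0.402 CPM in the libraries labelled hairpin 2, against 0.0257, 0.0299 and 0.0295 CPM in the controls in PANC-1. Each control library held 1 XDH count, so that a fitted fold change depends on the prior count and is not given. XDH passed the filter on low counts only through libraries with the constructs, so the filter allowed a rise and no fall. Its place among the largest shared changes is therefore no support for a rise. ALDH1L2, the mitochondrial formyltetrahydrofolate dehydrogenase, had 1.43, 3.39 and 3.47 CPM with hairpin 1 and 3.24, 3.23 and 3.42 CPM in the libraries labelled hairpin 2, against 1.03, 0.508 and 0.414 CPM in the controls (log2 fold changes of 2.06 and 2.32). ADA, the adenosine deaminase, fell in WiDr with both hairpins (-0.98 and -1.46) and with both guides (-1.92 and -1.01). In the hairpin experiment ADA held only 5 to 20 counts per library, and its adjusted p with hairpin 1 was 0.0445 (edgeR). The controls there had 0.630, 0.490 and 0.572 CPM, against 0.220 to 0.321 CPM with hairpin 1 and 0.103 to 0.291 CPM with hairpin 2. ADA needed its controls to pass the filter on low counts there, so the filter favoured a fall with hairpins. With guides ADA held 9 to 47 counts. Its levels were 0.306, 0.297 and 0.437 CPM with guide 1 and 0.560, 0.876 and 0.525 CPM with guide 2, against 1.14, 1.30 and 1.53 CPM in the controls, without overlap between guides and controls. DPYD, which starts uracil and thymine breakdown, fell with both WiDr hairpins (-1.82 and -1.78, SE 0.40 each). It held only 4 to 56 counts per library, so the size of its fall is uncertain. UPP1, the uridine phosphorylase, rose with both guides (1.09 and 0.58). NT5E, the surface nucleotidase CD73, was the 1 gene called with both hairpins in MDA-MB-468, at -1.87 and -1.58, with 2.14, 2.82 and 2.60 CPM with hairpin 1 and 3.26, 3.38 and 2.58 CPM with hairpin 2, against 9.59, 8.37 and 9.71 CPM in the controls.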

How the data were processed

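The authors deposited RSEM expected counts per gene for 36 libraries. Bowtie2 2.1.0, RSEM 1.2.15 and the hg38 build are named, per the submitters' processing notes. No source used here gives the annotation or the strand setting. The counts were rounded to whole numbers. Each experiment of 9 libraries was fitted alone with R 4.3.3 and edgeR 4.0.16, using its quasi-likelihood F test (robust), TMM factors and the filterByExpr filter with arms as groups, and p-values were adjusted over all genes tested by Benjamini-Hochberg at 0.05. A standard error is the size of the log2 fold change divided by the square root of F. Differences of effects came from fits of 18 libraries. Levels between genes were divided by the longest GENCODE 29 transcript. Promoters came from RefSeq on GRCh38.p14, with 1 window a gene, that with the most motif matches.

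Libraries were grouped by title, replicates were taken as biological, as the series' design text has it, and no arm was paired by replicate number. The 34 genes, their roles, the 74 further pathway genes and the tests were chosen with earlier results of these data known. Genes given per library were those called the same way with both constructs of an experiment (up to 6 rises and 6 falls), those called in opposite directions, paralogues of called genes, genes whose effect differed with calls of opposite sign and, where no gene was called with both, the 4 with the smallest adjusted p; a few others were added after their values were seen. Of the further genes, at most 2 per experiment with the largest shared change were named. The targeted gene itself is not reported here. The tests were tried on simulated data with 50 changed genes per size of change. That is a far smaller share than the 30.2% of 15128 genes called with PANC-1 hairpin 1 or the 48% called with WiDr hairpin 1. With fewer changed genes the adjustment is stricter, so the simulated shares can understate recovery in PANC-1 and WiDr. Of 1.5-fold changes, 20% were recovered with both constructs for PANC-1 hairpins and 26% for those of MDA-MB-468. The WiDr shares were 96% for hairpins and 92% for guides. At 1.25-fold the shares were 0%, 2%, 58% and 52% in that order, and at 2-fold 86%, 96%, 100% and 98%. Counts of calls therefore cannot be compared between lines as counts of changes. Alternatives were DESeq2 size factors, upper-quartile scaling, no filter, no ribosomal RNA genes, the DESeq2 1.42.0 Wald test, each pair of arms alone, all 36 libraries in 1 fit, a replicate block, the genotype-field grouping and leaving out each library.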

Additional observations from a re-analysis of the deposited data

Results flagged for a closer look

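The effects of 25 gene and comparison pairs differed between experiments by the interaction test of edgeR, with Benjamini-Hochberg adjustment over all genes. Between WiDr hairpins and WiDr guides these differences of log2 effects were RRM2 0.87, RRM1 0.46, CTPS2 0.46, PFAS 0.45, SHMT1 0.31, TYMS 0.29, DTYMK 0.28, CTPS1 0.16, MTHFD1 0.13, UMPS -0.18, PPAT -0.22 and MTHFD2 -0.25. Between PANC-1 hairpins and WiDr hairpins they were CTPS2 0.64, PRPS2 0.54, TK2 0.37, GMPS -0.26, MTHFD1 -0.31, RRM2 -0.37, CTPS1 -0.45, PRPS1 -0.46, UMPS -0.49, ATIC -0.51, DTYMK -0.67, NME1 -0.75 and ADSL -0.77. The shares of 12 and 13 of the 34 genes stand beside backgrounds of 41.6% and 37.2% of all genes. Groups of 3 libraries are too small for a test of single outlying libraries.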

How the results depend on the processing

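No gene of the 34 was called in MDA-MB-468 with any 1 of its 9 libraries left out (0 to 0), but in 1 fit of all 36 libraries 1 gene was called with hairpin 1, 5 with hairpin 2, 1 with both (up) and 1 between hairpins, and by the DESeq2 Wald test 3 with hairpin 2 and 2 between hairpins. In PANC-1 the fit of all 36 libraries gave 17 and 18 called members, 10 that fell with both and 4 between constructs, and DESeq2 gave 2 between constructs. Each pair of arms alone gave 7 with hairpin 1, and 1 member rose with both there, without the filter and with the replicate block. In WiDr with hairpins the fit of all 36 gave 10 and 8 called members, 11 between hairpins, 1 that rose and 0 that fell with both, and 2 rose with both under upper-quartile scaling and the replicate block. In WiDr with guides the fit of all 36 gave 3 with guide 2, 1 that rose with both and 17 between guides, each pair alone gave 9 with guide 2, and 2 fell with both under DESeq2 size factors, upper-quartile scaling, no filter, DESeq2, each pair alone and the replicate block. The fit of all 36 gave 6 members whose effect differed between WiDr hairpins and guides. The replicate numbers were not shown to pair libraries: residual correlations of same-numbered libraries ran from -0.67 to 0.13 in PANC-1, against -0.34 to 0.50 between other numbers, and the ranges overlapped in the other experiments too. With the replicate block PANC-1 had 6 and 6 called members and 3 that fell with both. 

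Leaving out 1 library gave 6 to 15 called members with PANC-1 hairpin 1 and 6 to 16 in the libraries labelled hairpin 2, 3 to 9 that fell, 1 to 2 that rose and 0 to 1 between them. It gave 14 to 21 and 9 to 16 with the WiDr hairpins, 10 to 21 between them, 2 to 5 that rose and 1 to 3 that fell with both, 21 to 25 and 7 to 17 with guides, 22 to 26 between guides, 3 to 4 that rose and 1 to 2 that fell with both, and 9 to 14 and 12 to 20 for the differences of effects. 

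Grouped by the genotype field, 3 members were called with guide 1 and 0 with guide 2, between guides or with both, in either direction, and these log2 fold changes changed sign without a call. That grouping leaves guide 2 with 1 library, which is assumed to vary like the other groups. With guide 1 they were PAICS 0.011, IMPDH2 0.063, GMPS 0.019, DTYMK 0.00091 and HPRT1 0.044. With guide 2 they were IMPDH2 -0.23, TYMS -0.44, CMPK1 -0.058, HPRT1 -0.23 and MTHFD1 -0.24. Between guide 2 and guide 1 they were CAD -0.12, DHODH -0.20, UMPS -0.035, CTPS1 -0.18, CTPS2 -0.19, GART -0.077, PFAS -0.25, PAICS -0.17, ADSL -0.083, ATIC -0.10, IMPDH2 -0.29, GMPS -0.20, PRPS1 -0.17, PRPS2 -0.34, TYMS -0.38, RRM1 -0.34, RRM2 -0.47, DTYMK -0.17, DUT -0.19, CMPK1 -0.14, HPRT1 -0.27, APRT -0.072, TK1 -0.11, DCK -0.20, SHMT1 -0.43, MTHFD1 -0.23 and MTHFD2 0.12. Over all genes, calls with hairpins 1 and 2 of MDA-MB-468 numbered 731 and 1014 by DESeq2, 900 and 1268 in the fit of all 36 and 177 and 127 in pairs alone, against 332 and 511. Among other such counts that moved by more than 1.5 times were PANC-1 hairpin 1 (2966 in pairs alone, 2943 with the replicate block) and the libraries labelled hairpin 2 (3254 with the block), WiDr hairpin 2 (3964 in the fit of all 36), and guides 1 and 2 (3620 and 1261 in that fit, 1353 and 127 by the genotype field). Between constructs they were 327 by DESeq2, 399 in the fit of all 36 and 35 with the replicate block in MDA-MB-468 (against 64), 202, 510 and 5 in the same settings and 28 in pairs alone in PANC-1 (against 16), 3210 in the fit of all 36 with WiDr hairpins (against 6071), and 2802 in that fit and 0 by the genotype field with guides (against 5040). The cause of these differences was not tested. By median in place of longest transcript length, chosen for the control levels after the data were seen, mean ratios were 25.6 and 21.3 with the constructs, against 49.4 in the controls, for CTPS1 to CTPS2 and 4.41 and 4.42 with the constructs, against 7.83 in the controls, for PRPS1 to PRPS2 in PANC-1, and 25.9 and 16.9 with the constructs, against 14.9 in the controls, for SHMT2 to SHMT1 with guides. The lowest count of any of the 34 in any library was 214, for CTPS2 in PANC-1.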
